A study of Mus musculus with 3 samples.

Results

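In all, 10 imprinted genes that control growth were followed across the stromal cells of mouse inguinal fat: H19, Peg3, Dlk1, Meg3, Cdkn1c, Grb10, Plagl1, Mest, Ndn and Zim1. They are 10 of the 32285 genes counted, chosen by name with earlier results of these data known. Cells were the CD31- CD45- stromal vascular fraction (SVF) of the subcutaneous inguinal depot, sorted from wild-type (WT) male C57BL/6J mice that were 8 weeks old and carried no transgene or treatment by their labels. There is 1 group with 3 replicate libraries, each taken as 1 mouse, since 3 mice were used for single-cell sequencing. RNA was counted as unique molecular identifiers (UMIs), tags that mark each captured molecule, in single cells by 10x Genomics 3′ sequencing. P-values measure how much the differences between groups of cells vary over these 3 libraries. Because the genes were chosen with earlier results of the same libraries known, the p-values are not independent support for a pattern.

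An imprinted gene is transcribed mainly from the copy inherited from a single parent, a bias that goes back to marks such as DNA methylation set in the germ line. The methylated copy is not the silent one for every gene. Paternally expressed genes such as Peg3, Dlk1, Mest, Ndn and Plagl1 and maternally expressed genes such as H19, Meg3, Cdkn1c and Zim1 lie in clusters, and many of them act on fetal growth, cell division or insulin signalling. In fat, Dlk1 is known as an inhibitor of adipogenesis and Mest is known for its link to fat expansion. The parental copy cannot be read from the counts used here.

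Cells were placed in 4 gates defined by raw UMIs of 8 marker genes. The progenitor gate took cells with 3 or more UMIs of Dpp4 and Pi16 together and at most 1 of Icam1 and Fabp4 together. The preadipocyte gate took 4 or more UMIs of Icam1 and Fabp4 and at most 1 of Dpp4, and the regulatory gate took 1 or more of Clec11a and of Fmo2 with at most 1 of Fabp4 and of Dpp4. The Cited1 gate took 2 or more UMIs of Cited1 and 2 or more of Fabp4 and Lpl together, and a cell that met several gates went to the Cited1 gate first and then to the regulatory gate. Those 8 genes chose the cells, so they were given no test. Of 34577 cells kept, 26790 fell in a gate: 19793 in the progenitor gate, 5338 in the preadipocyte gate, 1310 in the regulatory gate and 349 in the Cited1 gate. Both the regulatory and the preadipocyte gate were met by 22, 95 and 57 cells of mice 1, 2 and 3.

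Depth set how finely each gate could be read. The 3 libraries kept 12984, 6414 and 15179 cells, with 78108414 to 99328725 UMIs a library and a median of 6667 to 12192.5 UMIs a cell, deepest in mouse 2. Pairs of libraries shared 52 to 81 cell barcodes. The Cited1 gate was the smallest, with 212, 64 and 73 cells, and its cells had a median of 8148 to 14151 UMIs. At its lower limit of 2 Cited1 UMIs stood 70, 36 and 30 of these cells, while 339, 188 and 260 cells stood 1 UMI below it. For the progenitor gate 61 to 216 cells stood at the limit and 122 to 314 just below it, for the preadipocyte gate 85 to 232 and 140 to 324, and for the regulatory gate 163 to 307 and 1462 to 3415. Summed progenitor markers (7 genes, 2 of them the gate's own) reached 8409 to 9139 UMIs per 1000000 (CPM) in progenitor-gated cells, and 782 to 822 in preadipocyte-gated cells.

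Promoter windows of the neighbours Peg3 and Zim1 are shown because these genes were highest in the same gate. They also met in more preadipocyte-gated cells than their separate shares give, though in few (32, 15 and 16 in mice 1, 2 and 3). Windows of Meg3 and Mest are shown because Meg3 was higher and Mest lower in progenitor-gated than in preadipocyte-gated cells. Each runs 5′ to 3′ over 300 bases around the start (RefSeq, GRCm38.p6), and capitals mark CG dinucleotides, the letters at which DNA is methylated. Peg3 lies at chr7:6730370-6730669 on the minus strand and Zim1 at chr7:6696383-6696682 on the minus strand. Meg3 lies at chr12:109540746-109541045 on the plus strand and Mest at chr6:30737800-30738099 on the plus strand.
Peg3: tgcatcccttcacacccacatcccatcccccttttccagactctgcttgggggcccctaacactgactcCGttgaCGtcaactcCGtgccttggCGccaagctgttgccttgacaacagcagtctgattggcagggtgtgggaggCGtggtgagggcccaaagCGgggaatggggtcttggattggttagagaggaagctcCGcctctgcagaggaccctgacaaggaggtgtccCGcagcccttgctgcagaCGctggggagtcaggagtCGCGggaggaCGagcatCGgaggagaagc
Zim1: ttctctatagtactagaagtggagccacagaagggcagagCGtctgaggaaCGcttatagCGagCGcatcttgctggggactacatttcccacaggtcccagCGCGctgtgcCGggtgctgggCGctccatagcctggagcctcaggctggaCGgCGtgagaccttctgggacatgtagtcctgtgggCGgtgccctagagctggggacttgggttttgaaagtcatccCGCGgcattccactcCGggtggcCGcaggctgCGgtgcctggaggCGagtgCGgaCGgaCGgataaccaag
Meg3: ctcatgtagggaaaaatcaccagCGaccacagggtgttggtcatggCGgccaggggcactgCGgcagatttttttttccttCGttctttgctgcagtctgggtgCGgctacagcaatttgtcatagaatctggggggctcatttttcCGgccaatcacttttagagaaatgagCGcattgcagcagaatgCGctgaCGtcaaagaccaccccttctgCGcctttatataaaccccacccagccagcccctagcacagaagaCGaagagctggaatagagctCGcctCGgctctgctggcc
Mest: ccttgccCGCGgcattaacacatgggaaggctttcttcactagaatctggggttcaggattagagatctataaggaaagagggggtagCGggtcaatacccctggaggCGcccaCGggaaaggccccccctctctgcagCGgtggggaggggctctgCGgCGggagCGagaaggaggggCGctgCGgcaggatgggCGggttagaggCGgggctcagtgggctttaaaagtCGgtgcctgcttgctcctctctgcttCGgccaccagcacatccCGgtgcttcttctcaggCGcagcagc
Peg3 and Meg3 have 13 CG each in these windows, a number that 37.9% of 32851 promoter windows reach. Mest has 17, reached by 31.4% of windows, and Zim1 has 20, reached by 26.5%. Meg3 and Mest have other windows that are not shown. That of Meg3 at chr12:109545148-109545447 has 1 CG, reached by 94.6% of windows. Those of Mest are at chr6:30733256-30733555, with 8 CG (48.65% of windows), and at chr6:30737803-30738102, with 17. The letters GGGGCCCC, which read alike on both strands, were searched as the core of the binding motif of PLAGL1, the protein of another gene of the set. They are in 354 of the 32851 windows (1.08%), and among the windows found for 8 of the 10 genes (all but H19 and Cdkn1c) only that of Peg3 holds them, starting at base 50. A match in letters is a description of the window and not a site shown to be bound.

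Meg3 is a long noncoding RNA of the Dlk1-Dio3 cluster at chr12:109541001-109571726 on the plus strand. Its level in progenitor-gated cells was 1664, 1633 and 1674 CPM in mice 1, 2 and 3. In preadipocyte-gated cells it was 554, 679 and 675 CPM, in regulatory-gated cells 852, 837 and 806 CPM, and in Cited1-gated cells 489, 913 and 796 CPM. The progenitor values lay above every value of the other gates, the regulatory values lay above the preadipocyte values, and the wide Cited1 range overlapped both. By edgeR, Meg3 was higher in progenitor-gated than in preadipocyte-gated cells (log2 fold change 1.42 ± 0.15 (SE, n = 3 mice), adjusted p = 6.24e-06), a 2.68-fold difference. Regulatory-gated cells differed from preadipocyte-gated cells by 0.45 ± 0.15, which did not pass (edgeR adjusted p = 0.0517). Meg3 UMIs were found in 95.5% ± 1.4 (SD, n = 3) of progenitor-gated cells and in 68.7% ± 8.5 of preadipocyte-gated cells. After thinning each cell to 3000 UMIs these shares were 89.5% and 53.1%.

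H19, a maternally expressed long noncoding RNA at chr7:142575529-142578143 on the minus strand, is the host of miR-675. The mature arms of this miRNA are given with bases 2 to 8, the seed, in capitals (RefSeq, GRCm38.p6, chr7, minus strand).
mmu-miR-675-5p: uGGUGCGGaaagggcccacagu
mmu-miR-675-3p: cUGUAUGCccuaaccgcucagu
These arms were not counted, and the values concern the host RNA alone. H19 stood at 64.8, 83.9 and 36.1 CPM in Cited1-gated cells of mice 1, 2 and 3. It stood at 33.6, 7.29 and 8.29 CPM in preadipocyte-gated cells, at 9.39, 7.02 and 8.52 CPM in progenitor-gated cells and at 4.6, 0.575 and 2.44 CPM in regulatory-gated cells. The Cited1 values lay above all others, and mouse 1 was apart from the other mice in the preadipocyte gate. H19 was higher in Cited1-gated than in preadipocyte-gated cells (log2 fold change 1.89 ± 0.45, n = 3 mice, edgeR adjusted p = 0.0242) and lower in regulatory-gated than in preadipocyte-gated cells (-2.82 ± 0.77, adjusted p = 0.021). Without mouse 2 the first difference was 1.18 (edgeR adjusted p = 0.123), without mouse 3 it was 1.87 (adjusted p = 0.172) and without mouse 1 it was 2.88 (adjusted p = 0.00171). With cells thinned to 3000 UMIs before gating, which left 7 Cited1-gated cells in mouse 2 and took that mouse out of the gate, it was 0.09 (adjusted p = 0.968). Between progenitor-gated and preadipocyte-gated cells H19 differed by -0.73 ± 0.36, which did not pass (adjusted p = 0.113) and was 0.04 without mouse 1. Without mouse 3 the difference between regulatory-gated and preadipocyte-gated cells was -3.25 (edgeR adjusted p = 0.081). The regulatory levels of H19 come from 8, 3 and 6 UMIs in mice 1, 2 and 3.

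Few cells carried most of the H19 RNA. It was detected in 11.1% ± 3.0 (SD, n = 3) of Cited1-gated cells, 2.94% ± 2.04 of preadipocyte-gated cells, 2.37% ± 0.53 of progenitor-gated cells and 0.967% ± 0.808 of regulatory-gated cells. Thinned to 3000 UMIs a cell, the 4 shares were 5.69%, 1.63%, 1.28% and 0.355%. Over the gates, 61, 21 and 29 cells in mice 1, 2 and 3 held 5 or more H19 UMIs, out of 363, 102 and 220 cells with any. Those cells held 61.2%, 74.0% and 59.1% of the H19 UMIs, and a single cell reached 53, 101 and 71. The median positive cell had 1 UMI in each mouse. Igf2, the growth factor gene that shares its enhancers with H19, had 0 UMIs in Cited1-gated cells and a mean of 0.352 to 2.71 CPM in the other gates.

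Cdkn1c encodes p57, an inhibitor of cyclin-dependent kinases, at chr7:143458339-143461050 on the minus strand. It reached 57.3, 89.2 and 66.4 CPM in progenitor-gated cells of mice 1, 2 and 3, and 11.4, 16.3 and 12.3 CPM in preadipocyte-gated cells. Regulatory-gated cells had 12.1, 21.3 and 16.2 CPM and Cited1-gated cells had 29.3, 64.8 and 33.1 CPM. Mouse 2 was highest in each gate, and within every mouse the order was progenitor, Cited1, regulatory and preadipocyte. Progenitor-gated cells exceeded preadipocyte-gated cells by 2.44 ± 0.09 on the log2 scale (edgeR adjusted p = 1.1e-09, n = 3 mice), or 5.42-fold. Cited1-gated cells also exceeded preadipocyte-gated cells (1.48 ± 0.15, adjusted p = 0.000209), whereas regulatory-gated cells did not pass the test (0.36 ± 0.14, adjusted p = 0.0898). Thinned to 3000 UMIs, the Cited1 difference was 0.73 and did not pass (adjusted p = 0.561). In the Cited1 gate of mouse 2 a single cell held 23 of the 61 Cdkn1c UMIs. An annotated antisense gene, Gm44732, overlaps exons of Cdkn1c, and whether the counting used strand is not given in the sources used here.

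Other cyclin-dependent kinase inhibitors were compared in progenitor-gated against preadipocyte-gated cells, where 26.1% of all genes were higher and 25.2% lower. Of the 6 listed (Cdkn1a, Cdkn1b, Cdkn2a, Cdkn2b, Cdkn2c and Cdkn2d), 4 were tested, 0 were higher and 2 were lower: Cdkn2c (-1.14 ± 0.19, edgeR adjusted p = 0.000329) and Cdkn2d (-0.48 ± 0.15, adjusted p = 0.0173). Cdkn1a stood at a mean of 377 CPM in progenitor-gated and 380.4 CPM in preadipocyte-gated cells (0.04 ± 0.14, adjusted p = 0.841). Dividing cells, defined by 3 or more UMIs of Mki67, Top2a, Birc5 and Cdk1 together, numbered 11, 23 and 6 in the gates, fewer than 20 in mice 1 and 3, so no test was made. Their Cdkn1c level was 47.4, 90.8 and 13.9 CPM, from 6, 49 and 1 UMIs. Cells with 0 UMIs of the 4 genes had 45.1, 62.0 and 55.3 CPM.

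Grb10, an adaptor that binds the insulin receptor and restrains its signal, lies at chr11:11930508-12038683 on the minus strand. Its level was 162, 115 and 169.5 CPM in progenitor-gated cells of mice 1, 2 and 3, and 76.8, 58.8 and 86.9 CPM in preadipocyte-gated cells. In regulatory-gated cells it was 114, 86.1 and 104 CPM and in Cited1-gated cells 33.6, 73.2 and 73.7 CPM. In each mouse the progenitor value was the highest, and mouse 1 stood low in the Cited1 gate. Grb10 was 2.05-fold higher in progenitor-gated than in preadipocyte-gated cells (log2 fold change 1.04 ± 0.18, edgeR adjusted p = 0.000311, n = 3 mice). Neither regulatory-gated cells (0.51 ± 0.19, adjusted p = 0.0825) nor Cited1-gated cells (-0.57 ± 0.24, adjusted p = 0.196) passed the test against preadipocyte-gated cells.

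Plagl1, also known as Zac1, encodes a zinc finger transcription factor that can stop the cell cycle, at chr10:13060504-13131694 on the plus strand. Its level in progenitor-gated cells of mice 1, 2 and 3 was 81.6, 85.9 and 99.6 CPM, against 40.1, 24.0 and 52.2 CPM in preadipocyte-gated cells. Regulatory-gated cells had the lowest values in 3 of 3 mice, at 10.9, 19.6 and 25.6 CPM, while Cited1-gated cells spread from 45.6 CPM in mouse 2 and 61.7 in mouse 3 to 110.5 in mouse 1. Plagl1 was higher in progenitor-gated than in preadipocyte-gated cells (1.28 ± 0.21, edgeR adjusted p = 0.000246, n = 3 mice) and lower in regulatory-gated than in progenitor-gated cells (-2.13 ± 0.28, adjusted p = 6.5e-05). Between Cited1-gated and progenitor-gated cells it differed by -0.35 ± 0.27, which did not pass (adjusted p = 0.354). Between regulatory-gated and preadipocyte-gated cells it differed by -0.85 ± 0.30, which did not pass either (edgeR adjusted p = 0.0646).

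**Figure D1:**
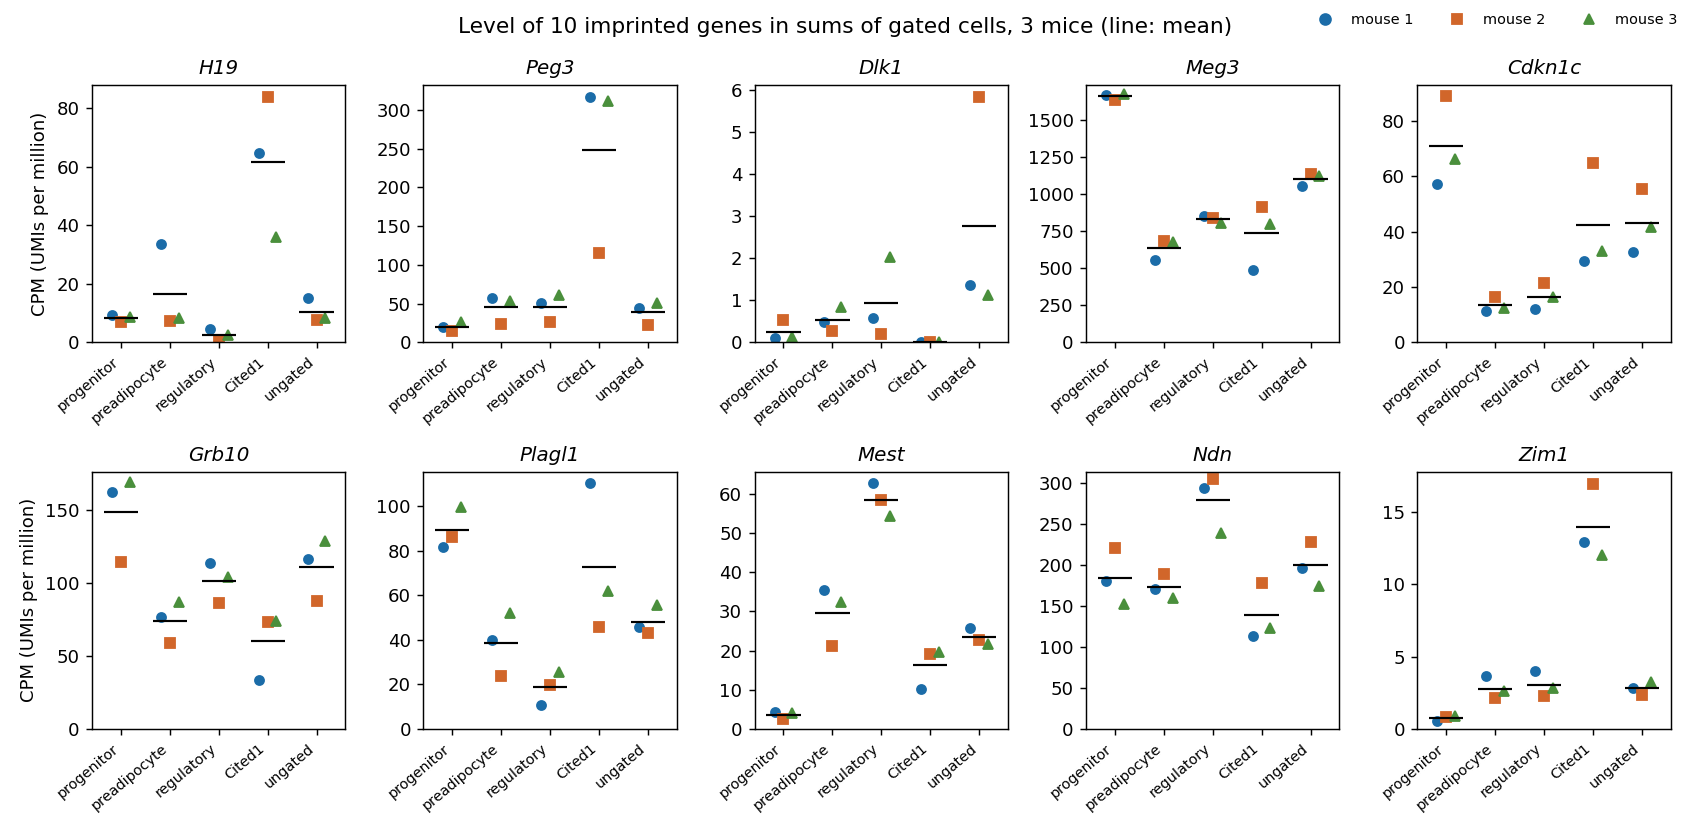
Level of each gene in CPM (vertical axis, from 0) in the sum of cells of each gate and of the cells in no gate, with 1 symbol for each of 3 mice and a line at the mean. Peg3 and Zim1 are highest in the Cited1 gate, with means of 248 and 14.0 CPM, Meg3 is highest in the progenitor gate, at a mean of 1657 CPM, and Mest is highest in the regulatory gate, at a mean of 58.5 CPM.

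Peg3, a zinc finger gene expressed from the paternal copy, lies at chr7:6703892-6730431 on the minus strand. In Cited1-gated cells its level was 317, 115 and 311 CPM in mice 1, 2 and 3. Preadipocyte-gated cells had 57.5, 23.8 and 53.8 CPM, regulatory-gated cells 50.6, 25.9 and 61.3 CPM, and progenitor-gated cells 20.1, 14.5 and 25.6 CPM. Mouse 2 was lowest in every gate, and yet its Cited1 value lay above all values of the other gates. Peg3 was 4.94-fold higher in Cited1-gated than in preadipocyte-gated cells (log2 fold change 2.30 ± 0.15, edgeR adjusted p = 2.95e-05, n = 3 mice), 2.21 ± 0.17 above regulatory-gated cells (adjusted p = 1.67e-05) and 3.38 ± 0.15 above progenitor-gated cells (adjusted p = 5.09e-08). Progenitor-gated cells were below preadipocyte-gated cells (-1.08 ± 0.13, adjusted p = 2.53e-05), and without the block on mouse that call was lost (adjusted p = 0.0512). Regulatory-gated and preadipocyte-gated cells did not differ by the test (0.09 ± 0.16, adjusted p = 0.749).

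Zim1, a maternally expressed zinc finger gene, lies 7442 bases downstream of Peg3 on the same strand, at chr7:6671269-6696450. Its level in Cited1-gated cells of mice 1, 2 and 3 was 13, 17 and 12 CPM, from 27, 16 and 8 UMIs. The level was 3.64, 2.12 and 2.64 CPM in preadipocyte-gated cells, 4.02, 2.30 and 2.84 in regulatory-gated cells and 0.577, 0.815 and 0.925 in progenitor-gated cells. Thus all 3 Cited1 values lay above, and all 3 progenitor values below, those of every other gate. Zim1 was 4.50-fold higher in Cited1-gated than in preadipocyte-gated cells (2.17 ± 0.34, edgeR adjusted p = 0.00284, n = 3 mice) and lower in progenitor-gated than in preadipocyte-gated cells (-1.81 ± 0.29, adjusted p = 0.000206). Without mouse 3 the Cited1 difference was 2.19 with an edgeR adjusted p of 0.0622. The progenitor and preadipocyte levels come from 119 and 134 UMIs over the mice. Shares of Zim1-positive cells in both gates were within the endothelial limits given below, so neither level is read as above background. Those limits come from few cells and cannot decide whether the levels are background.

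Peg3 was detected in 54.7% ± 10.4 (SD, n = 3) of Cited1-gated cells and in 19% ± 3.3 of preadipocyte-gated, 18.0% ± 0.8 of regulatory-gated and 11.1% ± 1.1 of progenitor-gated cells. Thinned to 3000 UMIs, the shares were 33.4%, 9.59%, 10.4% and 5.03%. Before thinning, 54, 10 and 10 Cited1-gated cells of mice 1, 2 and 3 had 5 or more Peg3 UMIs, out of 141, 30 and 37 with any. Those cells held 69.8%, 66.7% and 77.8% of the Peg3 UMIs of the gate, and a single cell reached 26, 11 and 36. Zim1 was detected in 11.1% ± 4.0 of Cited1-gated cells and in 0.589% to 2.20% of the other gates, or 5.24% and 0.187% to 0.771% after thinning. Endothelial cells, taken by 5 or more UMIs of Pecam1, Cdh5, Egfl7, Emcn and Esam, served as background in the 2 mice that held at least 20 of them. Of these cells, 25 and 30 were also in the preadipocyte gate, which is thus set in part against its own cells. Of 33 such cells in mouse 1 (median 3080 UMIs), 9.09% had a Peg3 UMI, 3.03% an H19 UMI and 0 a Zim1 UMI, a count that allows a share of up to 9.09%. Of 31 in mouse 2 (median 2015 UMIs), 0 had any of these 3, which allows up to 9.68%. The H19 share of preadipocyte-gated cells before thinning was 5.27% in mouse 1, above its 3.03%, and 1.46% and 2.1% in mice 2 and 3. After thinning the highest of these shares was 3.07%, near that 3.03%. The mean H19 shares of progenitor-gated and regulatory-gated cells and the Zim1 shares outside the Cited1 gate were within these values or limits. So was the thinned Peg3 share of progenitor-gated cells, and none of them is read as detection above background. A limit of 9.09% or 9.68%, from 33 or 31 cells, contains any lower share, so it cannot decide whether a share is background. After thinning, closer to the depth of the endothelial cells, the Zim1 share of Cited1-gated cells was 3.81% to 7.81%, also within the limits. The thinned H19 share of Cited1-gated cells was 2.74% to 8.10% over the mice. It was above the endothelial 3.03% in mouse 1 and within the limit in mouse 2, and mouse 3 has no background value. Thinned Peg3 shares of preadipocyte-gated and regulatory-gated cells in mouse 2, 5.97% and 7.27%, were within its limit too. The same endothelial cells had Cdkn1c UMIs in 33.3% and 35.5% of cells (100.4 and 196 CPM, above every gate in the same mouse) and Meg3 UMIs in 42.4% and 9.68% (602 and 507 CPM), so for these genes they are no background.

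Mest encodes an enzyme of the alpha/beta hydrolase family and lies at chr6:30723547-30748465 on the plus strand. Its level was 62.7, 58.5 and 54.4 CPM in regulatory-gated cells of mice 1, 2 and 3 and 35.4, 21.1 and 32.5 CPM in preadipocyte-gated cells. Cited1-gated cells had 10.1, 19.1 and 19.6 CPM and progenitor-gated cells 4.30, 2.63 and 3.98 CPM. These 4 ranges did not overlap, so the order regulatory, preadipocyte, Cited1 and progenitor held in each mouse. The difference between progenitor-gated and preadipocyte-gated cells was -2.98 ± 0.16 (edgeR adjusted p = 1.54e-08), or 7.88-fold. Mest was 2.14-fold higher in regulatory-gated than in preadipocyte-gated cells (log2 fold change 1.10 ± 0.16, edgeR adjusted p = 0.000462, n = 3 mice) and 16.8-fold higher than in progenitor-gated cells (4.07 ± 0.18, adjusted p = 1.23e-08). It was detected in 2.38% ± 0.32 (SD, n = 3) of progenitor-gated cells. The endothelial cells of mice 1 and 2 had it in 3.03% and 3.23%, at 6.27 and 8.18 CPM from 1 UMI each. Mest in progenitor-gated cells is thus not read as above background, and the 7.88-fold and 16.8-fold values depend on that low level. Cited1-gated cells were below preadipocyte-gated cells (-1.22 ± 0.29, adjusted p = 0.0234), a call that was lost without mouse 1 (-0.59, adjusted p = 0.407) and without mouse 3 (-1.28, adjusted p = 0.161). Copg2 runs through exons of Mest on the opposite strand, at a mean of 11.3 to 15.5 CPM over the gates.

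Ndn encodes necdin, a MAGE family protein that restrains cell division, at chr7:62346569-62350262 on the plus strand. Regulatory-gated cells had 294, 304 and 239 CPM in mice 1, 2 and 3, above the 170.4, 189 and 159 CPM of preadipocyte-gated cells. Progenitor-gated cells had 180.2, 221 and 152 CPM and Cited1-gated cells 114, 178 and 123.4 CPM. The regulatory value was the highest and the Cited1 value the lowest within each mouse. Ndn was 1.67-fold higher in regulatory-gated than in preadipocyte-gated cells (0.74 ± 0.11, edgeR adjusted p = 0.000389, n = 3 mice). It was lower in Cited1-gated than in preadipocyte-gated cells by the main test (-0.50 ± 0.12, adjusted p = 0.0242), though not without mouse 1 (-0.37, adjusted p = 0.181) or without mouse 3 (-0.46, adjusted p = 0.261). Progenitor-gated and preadipocyte-gated cells did not differ by the test (0.11 ± 0.10, adjusted p = 0.4).

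Dlk1, the gene of the membrane protein also called Pref-1, lies at chr12:109452823-109463336 on the plus strand, 77665 bases before Meg3. It was too sparse to test. The gates held 33, 24, 7 and 0 UMIs of it over 3 mice in the progenitor, preadipocyte, regulatory and Cited1 order, and no gate exceeded 2.03 CPM in a mouse. Cells outside the gates had 1.36, 5.84 and 1.12 CPM in mice 1, 2 and 3, from 28, 93 and 24 UMIs. These values were above every gate in mice 1 and 2 but below the regulatory gate in mouse 3. In all, 0.759% ± 0.452 (SD, n = 3) of them had a UMI of Dlk1.

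Counts of called genes were read against all genes tested in the same fit, with calls at an edgeR adjusted p under 0.05. Progenitor minus preadipocyte called 7 of the 9 genes tested, against 51.2% of 12637 genes, with 4 higher (26.1% of all genes) and 3 lower (25.2%). Regulatory minus preadipocyte called 3 of 9 against 21.0%, with 2 higher (11.2%) and 1 lower (9.74%). Leaving out each mouse, it called 2 to 5 of the 9 (1248 to 1995 of all genes). Several other settings called more than 3, as given at the end. Cited1 minus preadipocyte called 6 of 9 against 7.34%, with 4 higher (3.29%) and 2 lower (4.05%). Regulatory minus progenitor called 8 of 9 against 40.0%, 4 higher (19.2%) and 4 lower (20.8%), and Cited1 minus progenitor also called 8 of 9, against 29.5%, 4 higher (13.1%) and 4 lower (16.3%). Cited1 minus regulatory called 8 of 9 against 14.7%, with 5 higher (6.48%) and 3 lower (8.21%). Without the block on mouse, Cited1 minus preadipocyte called 3 of the 9 genes (243 of 12637 genes) and regulatory minus progenitor called 5 (2736 of 12637). These comparisons share sums of the same cells, so their counts are not separate evidence.

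**Figure D2:**
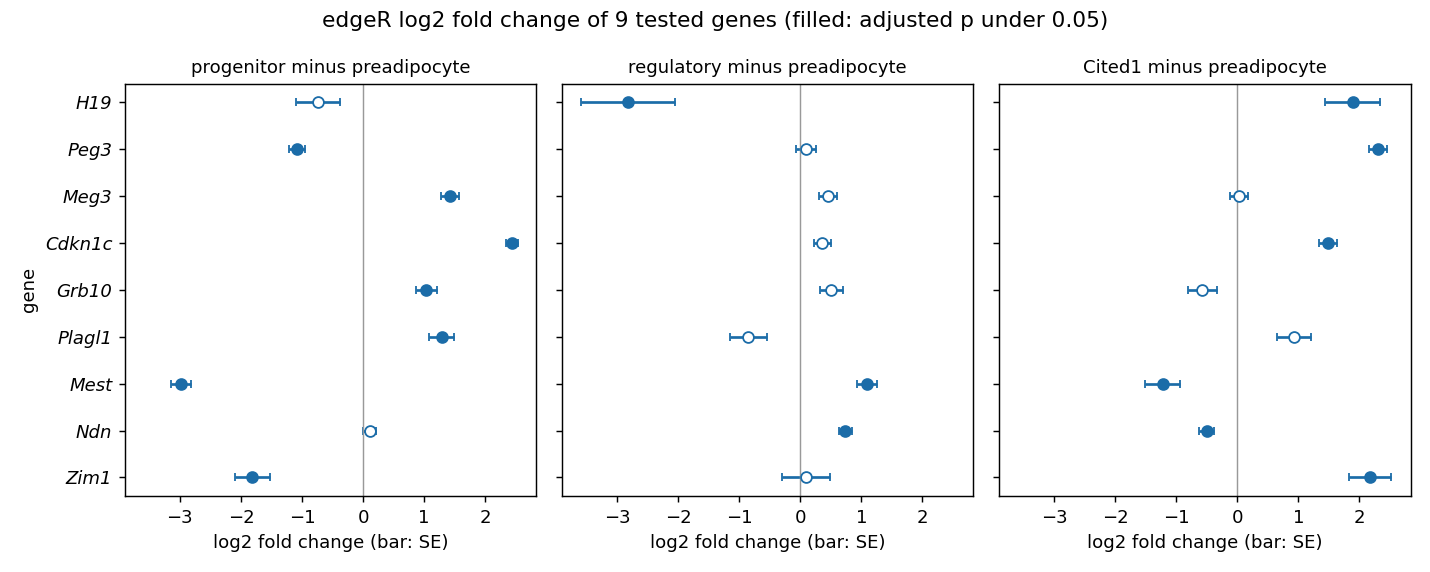
Log2 fold change of the 9 genes tested (horizontal axis) against preadipocyte-gated cells in each of 3 comparisons, with the standard error as bars and filled symbols for an adjusted p under 0.05. Mest is at -2.98 in progenitor-gated and 1.10 in regulatory-gated cells, and Peg3 is at 2.30 in Cited1-gated cells.

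The Cited1 gate overlapped the preadipocyte gate, and several of the genes differed between its cells inside and outside that gate. Of its cells, 170 of 212, 23 of 64 and 34 of 73 in mice 1, 2 and 3 also met the preadipocyte gate. Summed preadipocyte markers were 7669 to 13236 CPM in those cells and 1840 to 4551 CPM in the rest, where progenitor markers reached 3395 to 5852 CPM. Both lists hold genes that define the gates, so this contrast was set in part by the choice of cells. Mesothelial markers reached 402 CPM in the latter cells of mouse 3 and were 9.56 CPM or less in the other 5 sums. H19 was at 79.8, 148 and 70.1 CPM in the cells that also met the preadipocyte gate and at 11, 43.3 and 5.70 CPM in those that did not. Peg3 was at 349, 206 and 516 CPM against 203, 57.1 and 128 CPM, so that both genes were higher inside the preadipocyte gate in 3 of 3 mice. Meg3, Grb10, Cdkn1c and Ndn went the other way: Meg3 was at 436, 681 and 536 CPM inside and 679, 1059 and 1029 CPM outside, and Grb10 at 23.3, 43.9 and 31.9 CPM inside and 70.6, 91.7 and 111 CPM outside. Cdkn1c was at 23.3, 30.2 and 22.3 CPM inside and 50.7, 86.5 and 42.8 CPM outside, and Ndn at 101, 143 and 108 CPM inside and 159, 201 and 137 CPM outside, also higher outside in 3 of 3 mice. Inside and outside differ by the UMIs of Icam1, Fabp4 and Dpp4, and no test was made of the split.

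With only the Cited1-gated cells that also met the preadipocyte gate, an alternative added after the data were seen, Peg3 stayed above preadipocyte-gated cells. Its log2 fold change was 2.77 (edgeR adjusted p = 1e-07), that of Zim1 was 2.47 (adjusted p = 0.00326) and that of H19 was 2.34 (adjusted p = 0.00623). Grb10 then passed the test with a lower level (-1.58, adjusted p = 0.000395) and Plagl1 with a higher level (1.13, adjusted p = 0.0201). Where all cells that met a pair of gates were instead left out, mouse 2 kept fewer than 20 Cited1-gated cells and left the fit, Peg3 stayed higher (1.89, adjusted p = 0.000289) and H19 turned to -0.85 (adjusted p = 0.758). Under scaling by library size in place of TMM the median log2 fold change of all genes in the Cited1 comparisons was 0.15, 0.17 and 0.21 against preadipocyte-gated, progenitor-gated and regulatory-gated cells. That scaling raised the share of higher calls among all calls from 44.8% to 74.0%, from 44.6% to 66.2% and from 44.1% to 74.3%. The called genes among the 9 kept their sign under that scaling in these comparisons, while Ndn in Cited1 minus preadipocyte lost its call (-0.35, edgeR adjusted p = 0.0819).

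**Figure D3:**
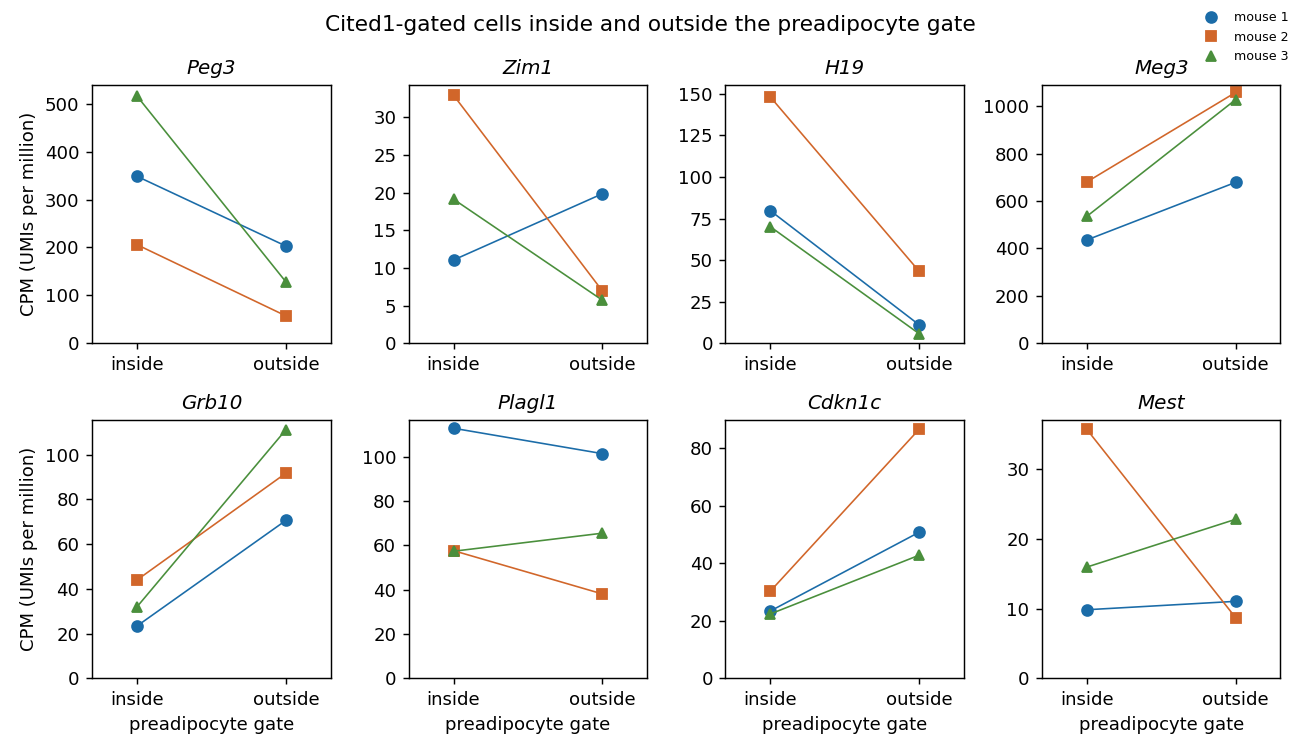
Level of 8 of the genes in CPM (vertical axis, from 0) in Cited1-gated cells inside and outside the preadipocyte gate, with a line for each of 3 mice. H19, Peg3 and Zim1 fall and Grb10 and Meg3 rise from inside to outside in mice 2 and 3, and mouse 1 goes the same way except for Zim1, which goes from 11.1 to 19.9 CPM.

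The preadipocyte-gated cells were also divided by their Cd44 UMIs. Cells with 2 or more Cd44 UMIs numbered 261, 306 and 319 in mice 1, 2 and 3 and cells with 0 numbered 1460, 747 and 1138. The former summed to 2335568, 4506022 and 2429745 UMIs and the latter to 11206658, 9165950 and 7891148, so Cd44-positive cells were deeper in each mouse. All 5 progenitor markers tested were also higher in them (median log2 fold change 0.58). The part of depth and of these markers in the differences below was not tested. The edgeR test called 3 of 9 genes against 18.8% of 11243 genes, with 2 higher (12.6% of all genes) and 1 lower (6.22%). Mest was at 21.8, 16.0 and 21.8 CPM in Cd44-positive cells and 39.4, 22.4 and 34.3 CPM in the others, lower in 3 of 3 mice (-0.56 ± 0.12, adjusted p = 0.00465). Peg3 was at 77.5, 28.6 and 54.7 CPM against 55.5, 21.5 and 57.3 CPM, higher in 2 of 3 mice (0.37 ± 0.11, adjusted p = 0.0264), and the call was lost without mouse 1 (0.25, adjusted p = 0.206) and without mouse 2 (0.29, adjusted p = 0.151). H19 was at 62.1, 7.99 and 9.88 CPM against 23.4, 9.93 and 9.25 CPM (0.80 ± 0.24, adjusted p = 0.0306), and without mouse 1 the difference was -0.03 (adjusted p = 0.949). DESeq2 called 0 of the 9 genes here (746 of 11243 genes), and so did the fit without the block on mouse (15 of 11243 genes). Library size scaling moved the share of higher calls from 66.9% to 40.9% of all calls.

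Co-detection asked whether pairs of these genes were found in the same cells more often than their separate shares give, within 10 strata of UMIs per cell. Of 45 pairs, 32 had at least 5 expected cells in every mouse in the progenitor gate, 29 in the preadipocyte gate, 16 in the regulatory gate and 14 in the Cited1 gate. The median ratio of observed to expected cells was 1.01, 1.04, 1.02 and 1.05 in these gates, and a gene found in most cells, such as Meg3, leaves its pairs little room above 1. Ratios above 1 in all 3 mice were found for 13 of the 32 progenitor, 10 of the 29 preadipocyte, 3 of the 16 regulatory and 3 of the 14 Cited1 pairs. Ratios below 1 in all 3 mice were found for 3, 2, 1 and 2 pairs of these gates. The share among other gene pairs was not computed, so these counts are descriptions. The highest ratio was that of Peg3 and Zim1 in preadipocyte-gated cells. Both were found in 32, 15 and 16 cells of mice 1, 2 and 3, where 11.8, 5.13 and 6.59 were expected, a ratio of 2.69 ± 0.25 (SD, n = 3) that ranged from 2.43 to 2.92. Without strata it was 2.78 ± 0.26, and thinned to 3000 UMIs, where as few as 0.546 cells were expected in a mouse, it was 3.09 ± 1.11. The cells with both were 32 of the 55, 15 of the 32 and 16 of the 31 Zim1-positive cells. Zim1-positive cells were 1.67% to 2.61% of preadipocyte-gated cells, within the endothelial limits of mice 1 and 2 and without a background value in mouse 3. The ratio of Peg3 and Zim1 thus rests on Zim1 counts that are not read as above background, a question that those limits cannot decide. Other gates held fewer than 5 expected cells in at least 1 mouse. There Peg3 and Zim1 met in 8, 7 and 19 progenitor-gated cells with 2.94, 3.32 and 7 expected, in 20, 8 and 6 Cited1-gated cells with 13.4, 5.38 and 3.02 expected, and in 0, 5 and 3 regulatory-gated cells with 1.31, 2.25 and 1.01 expected. The lowest ratio was that of H19 and Grb10 in preadipocyte-gated cells, found together in 26, 7 and 8 cells with 46.9, 10.5 and 17.6 expected (0.558 ± 0.105). It rests on H19-positive cells whose share before thinning was above the endothelial value in mouse 1 and within the limit of 9.68% in mouse 2. Mouse 3 has no background value. After thinning the highest H19 share over the mice, 3.07%, was near the endothelial 3.03% of mouse 1. In progenitor-gated cells the ratio of H19 and Grb10 was 1.01 ± 0.08, near 1. Peg3 and Mest reached 1.49 ± 0.40 in progenitor-gated cells, between 1.07 and 1.86, a spread that nearly met 1. The Mest share of these cells was below the endothelial values of mice 1 and 2.

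Neighbours in the same clusters gave further pairs, chosen after the data were seen. In preadipocyte-gated cells Meg3 and Rian, a noncoding RNA downstream of Meg3, met at 1.35 ± 0.16 times the expected number (SD, n = 3 mice), and Meg3 and Mirg, a host of many miRNAs in the same cluster, at 1.37 ± 0.17. In progenitor-gated cells, where nearly every cell had a Meg3 UMI, the ratios were 1.03 ± 0.01 and 1.03 ± 0.01. Cdkn1c and Kcnq1ot1, the long noncoding RNA of its cluster, met at 1.03 ± 0.01 in progenitor-gated and 0.994 ± 0.026 in preadipocyte-gated cells. Ndn and Snrpn, genes of the same cluster on chromosome 7, met at 1.03 ± 0.01 and 0.975 ± 0.030.

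**Figure D4:**
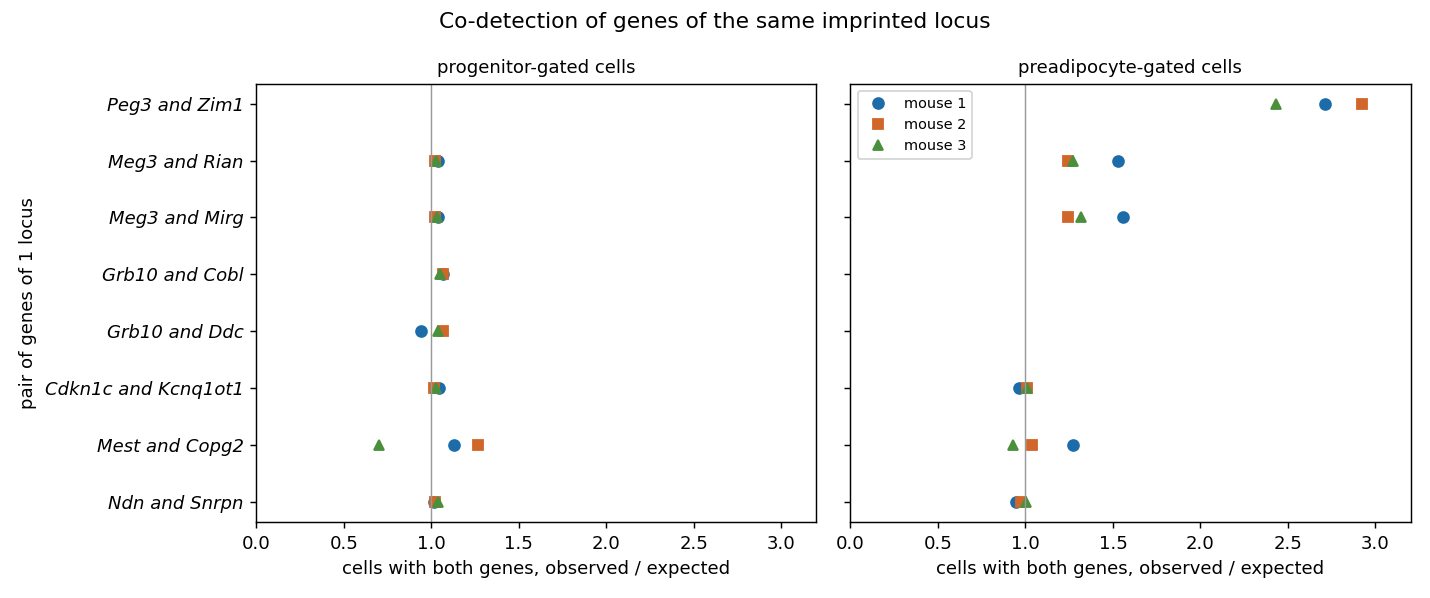
Number of cells with a UMI of both genes divided by the number expected from their separate detection (horizontal axis) for pairs of an imprinted locus, in progenitor-gated and preadipocyte-gated cells, with 1 symbol for each of 3 mice. Only pairs with at least 5 expected cells in each mouse are drawn, a line marks 1, and Peg3 and Zim1 lie between 2.43 and 2.92.

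Rian and Mirg, neighbours of Meg3, were also higher in progenitor-gated than in preadipocyte-gated cells. Rian was at a mean of 542 ± 153 CPM (SD, n = 3) in progenitor-gated and 143 ± 37 CPM in preadipocyte-gated cells (log2 fold change 1.95 ± 0.17, edgeR adjusted p = 9.28e-07). Mirg was at 34.2 ± 10.3 and 10.6 ± 3.6 CPM (1.71 ± 0.15, adjusted p = 1.26e-06). Dio3, at the far end of the cluster and the gene of the deiodinase that inactivates thyroid hormone, was named after its values were seen. Without a test, its mean was 0.194 ± 0.113 CPM in progenitor-gated, 1.76 ± 0.94 CPM in preadipocyte-gated and 10.9 ± 5.5 CPM in regulatory-gated cells. Rtl1, between Dlk1 and Rian, had 108 UMIs in progenitor-gated cells and 5, 0 and 2 in the preadipocyte, regulatory and Cited1 gates. These raw counts come from gates of unlike size and are not compared as levels. The sum of all genes was 38055776 to 61598499 UMIs a mouse in the progenitor gate and 664551 to 2082265 in the Cited1 gate.

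The genes that flank Grb10 were named after their values were seen, and they are given as a description with no test. Cobl, a gene of an actin nucleator, was at 11.6 ± 2.2 CPM (SD, n = 3) in progenitor-gated and 0.248 ± 0.027 CPM in preadipocyte-gated cells, where it was found in 4, 2 and 3 cells of mice 1, 2 and 3. Ddc, a gene of an amino acid decarboxylase, was at 3.69 ± 0.19 and 0.498 ± 0.293 CPM. Neighbours of Cdkn1c differed among themselves. Kcnq1ot1 was at 281 ± 54 and 279 ± 65 CPM in progenitor-gated and preadipocyte-gated cells and did not pass the test (0.06 ± 0.15, adjusted p = 0.754). Phlda2 had 6 UMIs in progenitor-gated cells and 3 in preadipocyte-gated cells. Neither Usp29, beside Peg3, with 17 UMIs over the gates, nor Magel2, beside Ndn, with 3, was detected often enough to test, and the neighbours Snrpn and Copg2 rose in progenitor-gated cells by 0.52 ± 0.12 (adjusted p = 0.00235) and 0.42 ± 0.12 (adjusted p = 0.0103).

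Other genes listed as imprinted moved both ways. Whether each of them is imprinted in these cells cannot be read from the counts. Of 60 listed, 58 were in the files and 38 were tested, and in progenitor minus preadipocyte 16 were higher (26.1% of all genes were), 13 lower (25.2% of all genes) and 9 not called, with a median log2 fold change of 0.05 against -0.01 over all genes. Among the called genes that averaged 20 CPM or more in some gate, 6 were higher and 7 lower. Beside Rian and Mirg, the higher ones were Ppp1r9a (1.71 ± 0.15), Qpct (1.66 ± 0.26), Osbpl5 (0.29 ± 0.10) and Ube3a (0.22 ± 0.07). The lower ones were Airn (-1.24 ± 0.09), Cd81 (-1.21 ± 0.09), Tssc4 (-0.93 ± 0.11), Igf2r (-0.68 ± 0.08), Pon2 (-0.62 ± 0.11), H13 (-0.37 ± 0.10) and Pon3 (-0.27 ± 0.09). Airn, a noncoding RNA that overlaps Igf2r, and Igf2r, the receptor that clears IGF2, were thus lower together. In the other comparisons 7 were higher and 7 lower in regulatory minus preadipocyte, against 11.2% and 9.74% of all genes, and 3 were higher and 3 lower in Cited1 minus preadipocyte, against 3.29% and 4.05%.

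Genes with the pattern most like each of the 9 were found by Pearson's r of log2 CPM over the 12 sums of 4 gates in 3 mice, among 5608 genes with a mean of at least 20 CPM. The nearest was Sema4c for Meg3 (r = 0.989), Man1a for Grb10 (0.984), Islr for Cdkn1c (0.98), Nfib for Mest (0.974), Ggh for Ndn (0.97) and Irs2 for Plagl1 (0.956). For Peg3 it was Uhrf2 (0.902), for Zim1 Hmox2 (0.894) and for H19 Clk4 (0.893). Within the set, Peg3 and Zim1 had r = 0.895, Grb10 and Meg3 0.865, and Mest and Plagl1 -0.865. For deviations from the gate means these r were 0.117, 0.733 and -0.254. These points share mice and libraries, and the values are descriptions.

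Some other signals moved with the gates. Genes of the response to tissue dissociation (9 genes, all found in every gate) summed to 11369 to 14739 CPM in progenitor-gated cells and 17400 to 22355 CPM in the other gates. Endothelial markers (6 genes, none at 0 over the gate) reached 3.62 to 44.7 CPM in preadipocyte-gated cells and 10.6 CPM at most elsewhere. Mural markers (5 genes) summed to 30.3 to 50.1 CPM in preadipocyte-gated and 2.92 to 5.42 CPM in progenitor-gated cells, and 4 of 5 were lower in progenitor-gated cells by the test. Schwann cell markers (4 genes, 1 at 0 in preadipocyte-gated cells) summed to 20 to 29.9 CPM in preadipocyte-gated and 2.66 to 5.47 CPM in progenitor-gated cells. Both markers tested were lower in progenitor-gated cells. The highest Schwann sums were in Cited1-gated cells, at 22.6 to 89.8 CPM with 2 markers at 0, and regulatory-gated cells had 14.6 to 27.6 CPM. With cells of 5 or more endothelial UMIs left out, an alternative added after the data were seen, all 63 values of the 9 genes kept their sign and their side of the threshold. The part of the dissociation response and of mural and Schwann cell RNA in the differences was not tested.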

How the data were processed

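UMI counts per gene and cell were deposited by the authors as 10x matrices of 3 libraries, made with Cell Ranger (2.1.1 in the submitters' processing notes, 4.0.0 in the matrix header) on mm10. They were not normalized. Positions come from GENCODE M21 on GRCm38, where 32235 of 32285 gene IDs matched, and sequences from RefSeq tables.

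Cells with more than 500 genes and under 5% mitochondrial UMIs were kept. Counts were summed per mouse and gate and tested with edgeR 4.0.16 (R 4.3.3) by the quasi-likelihood test, with filterByExpr, TMM, a block on mouse and Benjamini-Hochberg adjustment over all genes tested. Of the 10 genes, 9 passed the filter and Dlk1 did not. A gate with fewer than 20 cells in a mouse was left out for that mouse. Standard errors are the size of the log2 fold change divided by the square root of F, and are approximate. CPM are UMIs per 1000000 of the sum. Sums of a mouse come from the same library, and their deviations from gate means correlated with a median r of 0.221 to 0.36 over 12645 genes (lowest 0.0769), which is why mouse was a block.

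No doublet caller was run. Leaving out the 5% deepest cells was an alternative, as were DESeq2 1.42.0, library size or RLE scaling, no low-count filter, 10% mitochondrial UMIs, gates raised by 1 UMI, cells of 2 gates left out, thinning to 3000 UMIs, no block and leaving out each mouse. Restricting the Cited1 gate to cells that also met the preadipocyte gate and leaving out cells with endothelial UMIs were added after the data were seen. The scripts were tested on simulated data. Exact binomial intervals and limits of 3 counts for a count of 0 cover counting error only.

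The members, the other lists and the tests were chosen with earlier results of these data known. The named genes were the 10 members, other listed imprinted genes called in progenitor minus preadipocyte that averaged 20 CPM or more in some gate, 10 locus neighbours whatever their values, the cyclin-dependent kinase inhibitors and the gene most alike each member. Genes named outside this rule are marked in the text.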

Additional observations from a re-analysis of the deposited data

How the results depend on the processing

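Differences of these genes between gates mostly kept their sign, and the smaller gates set the limits. Without the replicate block on mouse the comparisons called 3422 genes in progenitor minus preadipocyte, 1204 in regulatory minus preadipocyte, 243 in Cited1 minus preadipocyte, 2736 in regulatory minus progenitor, 2104 in Cited1 minus progenitor, 791 in Cited1 minus regulatory and 15 by Cd44. These are out of 12637 genes tested, or 11243 by Cd44. Of the 9 genes the fit without the block called 3 in Cited1 minus preadipocyte, 5 in regulatory minus progenitor and 0 by Cd44, where Ndn turned to 0.0012. With no low-count filter Cited1 minus preadipocyte called 1472 genes. With cells of 2 gates left out, Cited1 comparisons called 532, 1262 and 905 of 13397 genes against preadipocyte, progenitor and regulatory. Of the 9 genes they called 2 and 5 against the first and second. Thinning gave 481, 1846 and 1060, with 3321 in regulatory minus progenitor and 175 by Cd44. DESeq2 called 746 of 11243 genes by Cd44 and 0 of the 9. Regulatory minus preadipocyte called 5 of the 9 under DESeq2 (2719 of 12637 genes). It called 6 with no filter (2904 of 21699), with cells of 2 gates left out (3138 of 13397) or thinned (1862 of 10767). It called 7 with Cited1 cells inside the preadipocyte gate alone (2966 of 12622). By Cd44, 1 of the 9 was called under library size (2316 of 11243 genes) or thinning (175 of 7752).

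Leaving out each mouse gave 1248 to 1995 genes in regulatory minus preadipocyte, 148 to 913 in Cited1 minus preadipocyte, 3147 to 4249 in regulatory minus progenitor, 1861 to 3785 in Cited1 minus progenitor, 594 to 1845 in Cited1 minus regulatory and 1063 to 1887 by Cd44. These are out of 12584 to 13100 genes tested, or 11026 to 11498 by Cd44. Of the 9 genes, leaving out each mouse called 2 to 5, 2 to 6 and 1 to 3 in regulatory minus preadipocyte, Cited1 minus preadipocyte and by Cd44.

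Some signs turned. In Cited1 minus preadipocyte, H19 was -0.85 and Meg3 -0.014 with cells of 2 gates left out, and Meg3 was -0.16 with gates raised, -0.50 thinned and -0.41 inside the preadipocyte gate. In Cited1 minus progenitor, H19 was -0.16 with cells of 2 gates left out and Plagl1 was 0.18 thinned. In regulatory minus preadipocyte, Peg3 was -0.073 and Zim1 -0.21 with gates raised, and -0.14 and -1.23 thinned. By Cd44, Plagl1 was -0.033 under library size and -0.32 thinned, Ndn was 0.011 with gates raised, 0.10 thinned and 0.018 without the deepest cells, and Meg3 was 0.0085 and 0.0081 with gates raised and without the deepest cells. Leaving out each mouse gave -1.09 to 0.044 for H19 in progenitor minus preadipocyte and -0.14 to 0.18 for Meg3 in Cited1 minus preadipocyte. By Cd44 it gave -0.47 to 0.023 for Cdkn1c, -0.047 to 0.17 for Grb10, -0.034 to 1.13 for H19, -0.053 to 0.038 for Ndn and -0.12 to 0.17 for Plagl1. The cause was not tested. Mouse 2 had fewer than 20 Cited1-gated cells with cells of 2 gates left out or thinned and left those fits.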
